A study of Homo sapiens with 6 samples.

Results

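The 36 genes described here encode 26 integrin subunits and 10 laminin chains, out of 20015 protein-coding genes of GENCODE version 44. They were chosen by gene symbol, as the cell surface receptors for extracellular matrix and a major family of basement membrane ligands. The measurement was chromatin immunoprecipitation followed by sequencing (ChIP-seq) for H3K27ac, the acetylation of a histone H3 lysine found at promoters and enhancers in use. The cells were SU-CCS-1, a long-established line of human clear cell sarcoma (CCS) with the EWSR1::ATF1 fusion, grown untreated in non-treated culture flasks. The series comprised 3 H3K27ac ChIP samples and 3 input samples of sonicated chromatin without immunoprecipitation, all of the same line and genotype, so that no second line, condition or fusion-free control entered any comparison. The peaks of the H3K27ac samples were deposited as 1 merged list of 30784 hg38 intervals, without heights, read counts or a column per sample. Every value below is therefore a position, a width or a count from that list, with no error between replicates and no test. A gene without a peak was below the calling threshold, which does not show that it lacked acetylation.

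Integrins are heterodimers of an α and a β subunit that span the plasma membrane. The pairing decides the ligand: some bind collagens, some laminins, some the arginine-glycine-aspartate (RGD) motif of fibronectin and vitronectin, and those with the β chains ITGB2 or ITGB7 serve mainly leukocyte adhesion and homing. Laminins are cross-shaped trimers of an α, a β and a γ chain that polymerize into the scaffold of basement membranes and are themselves bound by integrins. Melanocytic cells, whose markers CCS shares, contact laminin in the basement membrane of the skin.

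The labelled cell type was first compared with the acetylated promoters of marker genes. A promoter peak is a peak that comes within 3 kb of at least 1 annotated transcript start of the gene. Such a peak was present at 7 of 8 melanocytic and neural crest genes (MITF, SOX10, PMEL, MLANA, S100B, DCT and ERBB3, but not TYR), beside 63.4% of all protein-coding genes. The peak covered the canonical start in 4 of these 8 (MITF, SOX10, DCT and ERBB3), beside 53.5% of coding genes, so that the count rests on the wider window. It was present at 1 of 8 leukocyte markers (CORO1A), where PTPRC, SPI1 and LCP2 held peaks only inside the gene. None of the 5 epithelial, 4 endothelial and 4 platelet or megakaryocyte markers had one.

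The sequences in front of 5 members show the range of promoters in the set. Each is the 250 bases before the RefSeq start on GRCh38.p14, printed in the direction of transcription, with every CpG dinucleotide in capitals. The promoters of ITGA1 (chr5:52787666-52787915, plus strand, 16 CpG) and LAMC1 (chr1:183023170-183023419, plus strand, 32 CpG) lay at a peak. The promoter of ITGA8 (chr10:15719923-15720172, minus strand, 19 CpG) was also CpG-rich and had no peak within 3 kb. Those of the leukocyte gene ITGAE (chr17:3801189-3801438, minus strand, 6 CpG) and the platelet gene ITGA2B (chr17:44389650-44389899, minus strand, 2 CpG) were poor in CpG and had no peak within 3 kb of that start.
ITGA1: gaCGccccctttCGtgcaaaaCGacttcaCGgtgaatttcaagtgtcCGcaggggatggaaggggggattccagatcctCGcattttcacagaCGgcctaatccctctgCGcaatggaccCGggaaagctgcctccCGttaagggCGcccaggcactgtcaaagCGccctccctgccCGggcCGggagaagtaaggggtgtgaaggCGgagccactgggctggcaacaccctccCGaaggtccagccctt
LAMC1: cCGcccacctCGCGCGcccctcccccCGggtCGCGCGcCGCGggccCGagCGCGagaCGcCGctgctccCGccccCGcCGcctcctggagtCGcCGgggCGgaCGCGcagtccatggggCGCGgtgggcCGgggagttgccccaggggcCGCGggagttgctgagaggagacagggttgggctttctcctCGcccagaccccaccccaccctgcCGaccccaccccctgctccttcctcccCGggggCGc
ITGA8: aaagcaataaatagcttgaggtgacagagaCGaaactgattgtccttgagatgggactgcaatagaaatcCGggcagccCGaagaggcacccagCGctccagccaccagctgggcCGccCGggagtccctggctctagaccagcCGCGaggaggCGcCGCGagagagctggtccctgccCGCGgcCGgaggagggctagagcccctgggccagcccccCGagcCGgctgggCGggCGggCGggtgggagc
ITGAE: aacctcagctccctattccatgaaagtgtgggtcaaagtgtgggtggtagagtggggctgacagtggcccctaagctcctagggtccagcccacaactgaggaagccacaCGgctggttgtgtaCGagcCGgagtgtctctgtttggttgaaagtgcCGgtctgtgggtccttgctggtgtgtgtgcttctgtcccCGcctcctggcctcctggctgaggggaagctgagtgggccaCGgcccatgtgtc
ITGA2B: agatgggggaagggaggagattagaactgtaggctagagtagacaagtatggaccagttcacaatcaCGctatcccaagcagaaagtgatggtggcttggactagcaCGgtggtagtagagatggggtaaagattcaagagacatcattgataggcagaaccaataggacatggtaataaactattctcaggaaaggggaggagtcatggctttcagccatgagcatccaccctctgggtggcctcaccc

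A promoter peak was present at 17 of the 36 genes (47.2%, 95% Wilson interval 32.0 to 63.0, which covers counting only), beside 63.4% of all protein-coding genes. Among the 7 leukocyte integrins 1 had such a peak (14.3%, 2.57 to 51.3), among the other integrins 9 of 19 (47.4%, 27.3 to 68.3), and among the laminins 7 of 10 (70%, 39.7 to 89.2). The 3 intervals overlapped one another, and these shares were not tested. At the start of the canonical transcript, the count was 15 of 36 (41.7%) beside 59.9% of coding genes, and in all 15 the peak covered that start itself, which 53.5% of coding genes showed. The 15 comprised no leukocyte integrin, the same 9 other integrins, and 6 laminins. All 17 genes had a peak that covered 1 of their own annotated starts, and among the genes without a promoter peak the nearest peaks lay 3679 bases from a start of ITGAD and 4385 bases from a start of ITGAL. A further 3 genes (ITGA10, ITGAD and LAMA3) had a peak inside the gene only, and 16 genes had neither kind.

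**Figure D1:**
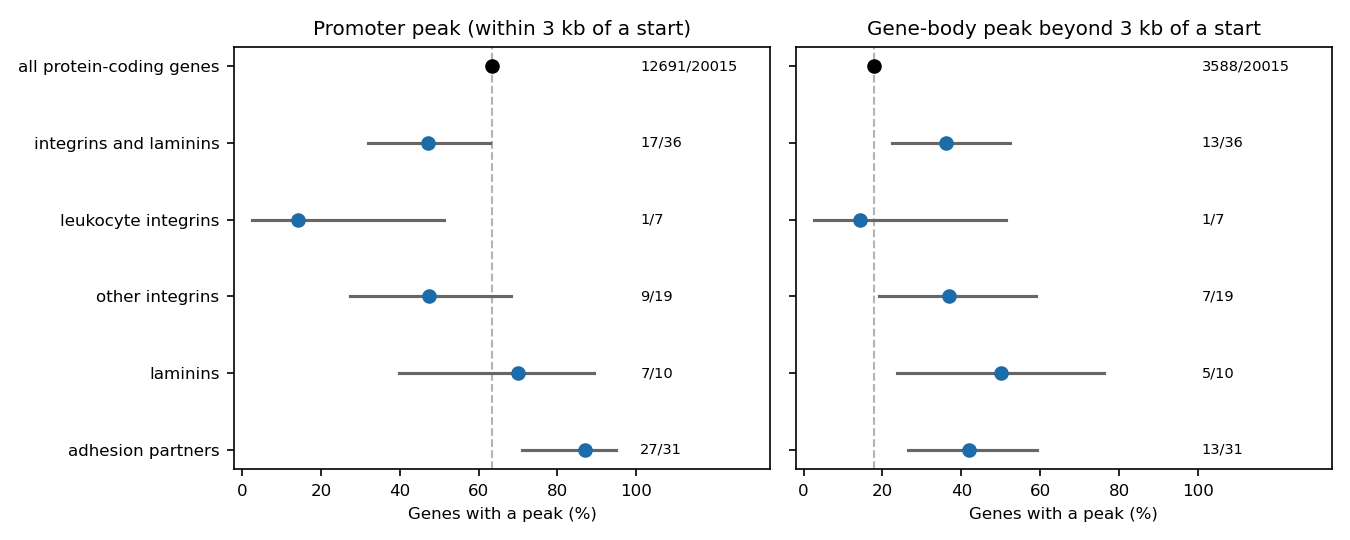
Share of genes with a promoter peak (left) and with a gene-body peak beyond 3 kb of their own starts (right), in percent; points are shares, bars are 95% Wilson intervals, the dashed line is the share of all protein-coding genes, and counts stand at the right. The leukocyte integrins sit lowest in the left panel at 1 of 7, and the adhesion partners highest at 27 of 31.

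Of the 4 collagen-binding α subunits, ITGA1 and ITGA2 had a promoter peak and ITGA10 and ITGA11 had none. The peak of ITGA1, a collagen IV receptor, measured 890 bases (chr5:52787681-52788570) and also reached the start of PELO, a ribosome rescue factor gene nested in the ITGA1 gene. The 2 genes cannot be told apart by this peak. The peak of ITGA2, the collagen receptor of platelets and epithelia, measured 1480 bases (chr5:52988801-52990280). ITGA10 and ITGA11 encode receptors of cartilage and of fibroblasts. The nearest peak lay 7.71 kb from a start of ITGA10 and 53.82 kb from a start of ITGA11.

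Among the laminin-binding α subunits, ITGA6 and ITGA7 had promoter peaks and ITGA3 had none. The ITGA6 peak measured 840 bases (chr2:172427431-172428270), narrower than those of most coding genes (percentile 13.6 of the widest promoter peak over 12691 genes). ITGA7, the main laminin receptor of muscle, had a 620-base peak on its canonical start (chr12:55707511-55708130) and a 4210-base peak 9.7 kb upstream (chr12:55715471-55719680). The wider one held the starts of upstream ITGA7 transcripts and also lay within 3 kb of starts of BLOC1S1, a lysosome biogenesis gene, and RDH5, a retinol dehydrogenase gene. For ITGA3, an epithelial laminin receptor subunit, the nearest peak lay 6.31 kb from any annotated start and 38.41 kb from the canonical one.

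ITGAV was the only 1 of the 4 RGD-binding α subunits with a promoter peak. It pairs with 5 β chains and had a single peak of 1930 bases (chr2:186589171-186591100), at percentile 65.2. ITGA5, the classic fibronectin receptor subunit, lay 19.2 kb from the nearest peak. ITGA8, a kidney and smooth muscle subunit, lay 139.8 kb from the nearest peak, the longest distance of the 36 genes when measured from any annotated start. ITGA2B, the platelet fibrinogen receptor subunit, lay 12.1 kb away. The related pair ITGA4 and ITGA9, which both bind the vascular adhesion molecule VCAM1, was split. ITGA9 carried a 1880-base promoter peak (chr3:37451771-37453650), and the nearest peak to a start of ITGA4 lay 133.3 kb away.

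Of the 6 β subunits outside the leukocyte group, ITGB1, ITGB5 and ITGB8 had promoter peaks and ITGB3, ITGB4 and ITGB6 did not. ITGB1 is the common partner of most α subunits, and its peak measured 1740 bases (chr10:32957341-32959080). The canonical start of ITGB5, a partner of ITGAV, held a peak of 1840 bases (chr3:124886131-124887970), and a 440-base peak in intron 4 lay within 3 kb of an internal start without covering it (chr3:124845151-124845590). ITGB8, which with ITGAV activates latent TGF-β, had 1530 bases over its start (chr7:20329401-20330930) and a further 1090 bases beginning 421 bases downstream (chr7:20331321-20332410). ITGB3, the partner of ITGA2B and ITGAV, lay 33.0 kb from the nearest peak. ITGB4, the hemidesmosome subunit of epithelia, lay 7.40 kb away, and ITGB6, an epithelial partner of ITGAV, 49.7 kb.

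The leukocyte integrins had few peaks in this list. ITGAL, ITGAM, ITGAX and ITGAD encode the α chains that pair with ITGB2, and none of these 5 genes had a promoter peak. The distances from any start to the nearest peak were 4.38 kb for ITGAL, 12.10 kb for ITGAM, 32.11 kb for ITGAX, 3.68 kb for ITGAD and 7.40 kb for ITGB2. ITGAM, ITGAX and ITGAD are neighbours on chromosome 16, and the 166.5 kb from the first to the last of them held 1 peak, of 1510 bases in intron 7 of ITGAD (chr16:31403581-31405090), within 3 kb of the start of a long noncoding RNA. ITGB7, the gut-homing β chain, lay 10.57 kb from the nearest peak. ITGAE, its partner on epithelial T cells, was the exception in this group. Its 1060-base peak (chr17:3723401-3724460) lay 77.3 kb downstream of the canonical start in intron 26, at the start of HASPIN, a mitotic kinase gene, and near the starts of shorter ITGAE transcripts. The nearest peak to the canonical ITGAE start was 44.22 kb away, and ITGAE had no promoter peak when only protein-coding transcripts, or only the canonical one, were counted. Over the 6 leukocyte integrins without a promoter peak the median distance was 8.98 kb, beside 26.1 kb for the 10 other integrins without one and 52.4 kb for all 7324 such coding genes.

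**Figure D2:**
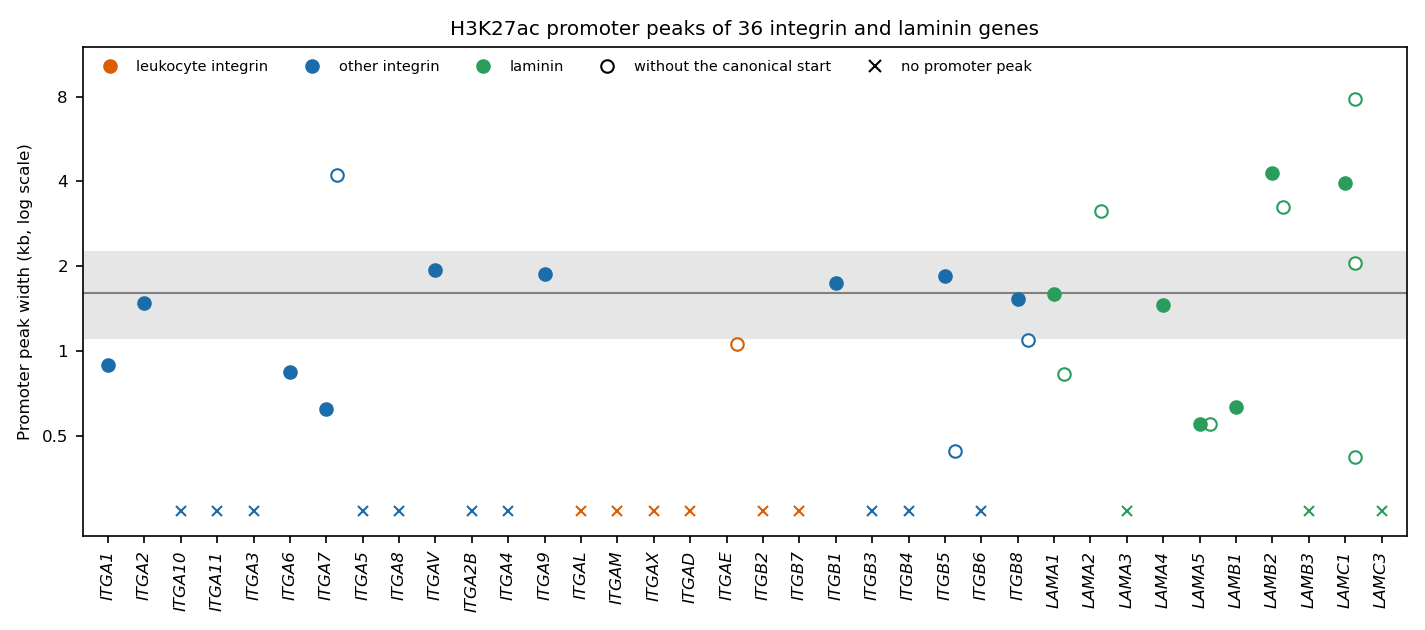
Width in kb (log axis) of every promoter peak of the 36 genes; filled points are peaks over the canonical start, open points, shifted right, are other promoter peaks, crosses mark genes without one, and colours give the class. The grey band spans the quartiles (1110 and 2250 bases) and the line the median (1600 bases) of the widest promoter peak over all protein-coding genes; LAMC1 has the widest peak at 7840 bases, and 6 of the 7 leukocyte genes are crosses.

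Among the laminin genes, those of 4 of 5 α, 2 of 3 β and 1 of 2 γ chains had a promoter peak. LAMA1, the α chain of the early embryonic laminin, had a peak of 1590 bases over its start (chr18:7116691-7118280) and 830 bases in intron 11 (chr18:7038141-7038970), within 3 kb of an internal start that it did not cover. LAMA4, an α chain of vascular and neural basement membranes, had 1450 bases (chr6:112253691-112255140). LAMA5, found in most adult basement membranes, had 550 bases over its start (chr20:62367111-62367660), at percentile 4.35, and another 550 bases beyond its 3′ end, within 3 kb of starts of ADRM1, a proteasome receptor gene. LAMA2, the muscle and Schwann cell α chain, had no peak at its canonical start. Its only promoter peak (3150 bases, chr6:129489091-129492240) lay 607.5 kb downstream in intron 56, at the starts of short internal transcripts.

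LAMB1 and LAMB2, the widely used β chains, contrasted in width. LAMB1 had 630 bases (chr7:108002701-108003330), at percentile 6.64. LAMB2 had 4290 bases (chr3:49130601-49134890), at percentile 94.5, in a gene of 12005 bases, and a second peak of 3240 bases at its 3′ end was shared with the start of USP19, a deubiquitinase gene. LAMC1, the γ chain of most laminins, had a peak of 3960 bases over its start (chr1:183022121-183026080). It had 3 more, of 420, 7840 and 2050 bases, within 3 kb of internal starts 71.6 to 87.6 kb downstream. LAMA3 and LAMB3, α and β chains of the laminin that anchors epithelia, had no promoter peak and lay 5.79 and 131.8 kb from the nearest one, as did LAMC3, at 10.3 kb.

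Promoter peaks of the members had nearly the same median width as those of other genes. The widest promoter peak of each of the 17 genes had a median of 1590 bases (quartiles 1060 and 1930), beside 1600 bases over 12691 coding genes. It reached 3 kb or more in 4 of 17 genes (ITGA7, LAMA2, LAMB2 and LAMC1, 23.5%, 9.56 to 47.3), beside 12.8% of coding genes with a promoter peak. Of these 4, LAMA2 had its wide peak away from the canonical start, ITGA7 shared its wide peak with neighbouring genes, and LAMB2 and LAMC1 each had one above 3 kb over the canonical start.

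Beyond the promoters, 13 of the 36 genes held 32 gene-body peaks, which lie inside the gene and over 3 kb from any of its starts (36.1%, 22.5 to 52.4), beside 17.9% of all protein-coding genes. Members are long genes, with a median length of 80577 bases beside 27466 bases. Among genes of 50 to 400 kb, 9 of 23 members (39.1%, 22.2 to 59.2) and 34.2% of 6277 coding genes held such a peak. For 5 or more such peaks the counts were 3 of 23 members (ITGA9, ITGB8 and LAMC1; 13%, 4.54 to 32.1) and 6.01% of coding genes. Of the 32 peaks, 28 had their midpoint in an intron and 14 in intron 1. The 32 ranged from 400 to 9060 bases with a median of 830 bases, beside 820 bases for gene-body peaks of coding genes, and 7 of them lay within 3 kb of a noncoding gene's start.

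LAMC1 held 10 peaks, the most of the 36 genes. In its first intron, 6 gene-body peaks of 400 to 1440 bases lay 57.9 to 69.4 kb downstream of the start, followed without a gap of 12.5 kb by the 3 internal promoter peaks. Joined at that distance, the stitching distance of the study, the 9 peaks formed a region of 31.08 kb with 15.08 kb of peak sequence, rank 267 of 17049 such regions by summed width. The region of ITGA7 ranked 232, with 7 peaks and 16.08 kb, and extended over the neighbouring genes. These ranks order width alone, since the list holds no signal.

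ITGB8 held 6 gene-body peaks, 4 of them in intron 1 between 5.2 and 19.7 kb downstream of the start. With its promoter peaks these formed a region of 6 peaks and 6.43 kb, at rank 1257. ITGA9 held 5, among them one of 9060 bases in intron 15 (chr3:37622001-37631060), 174.4 kb downstream of the start and at percentile 99.6 of all peak widths, and one of 2830 bases in intron 18. Neither lay within 3 kb of any annotated start. LAMA1 held 3, the widest with 3080 bases 27.3 kb into intron 1. ITGA2 held 3 of 1030, 1550 and 1170 bases, the first of them 97.6 kb downstream, near the 3′ end and a long noncoding RNA start. LAMA3 held peaks of 990 and 550 bases in introns 35 and 67, 173.3 and 247.8 kb downstream of the canonical start, and its RefSeq start lies between them at 183.57 kb.

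Single gene-body peaks were present in ITGA1 (2590 bases, intron 1), ITGA7 (770 bases, intron 1), ITGA10 (840 bases, 18.3 kb downstream), ITGAD (1510 bases), LAMA2 (790 bases, intron 38) and LAMB1 (520 bases, intron 24). That of ITGB1 (1320 bases, chr10:32980041-32981360) lay 22.5 kb upstream of the canonical start, within an upstream transcript and near a start of the divergent noncoding gene ITGB1-DT.

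**Figure D3:**
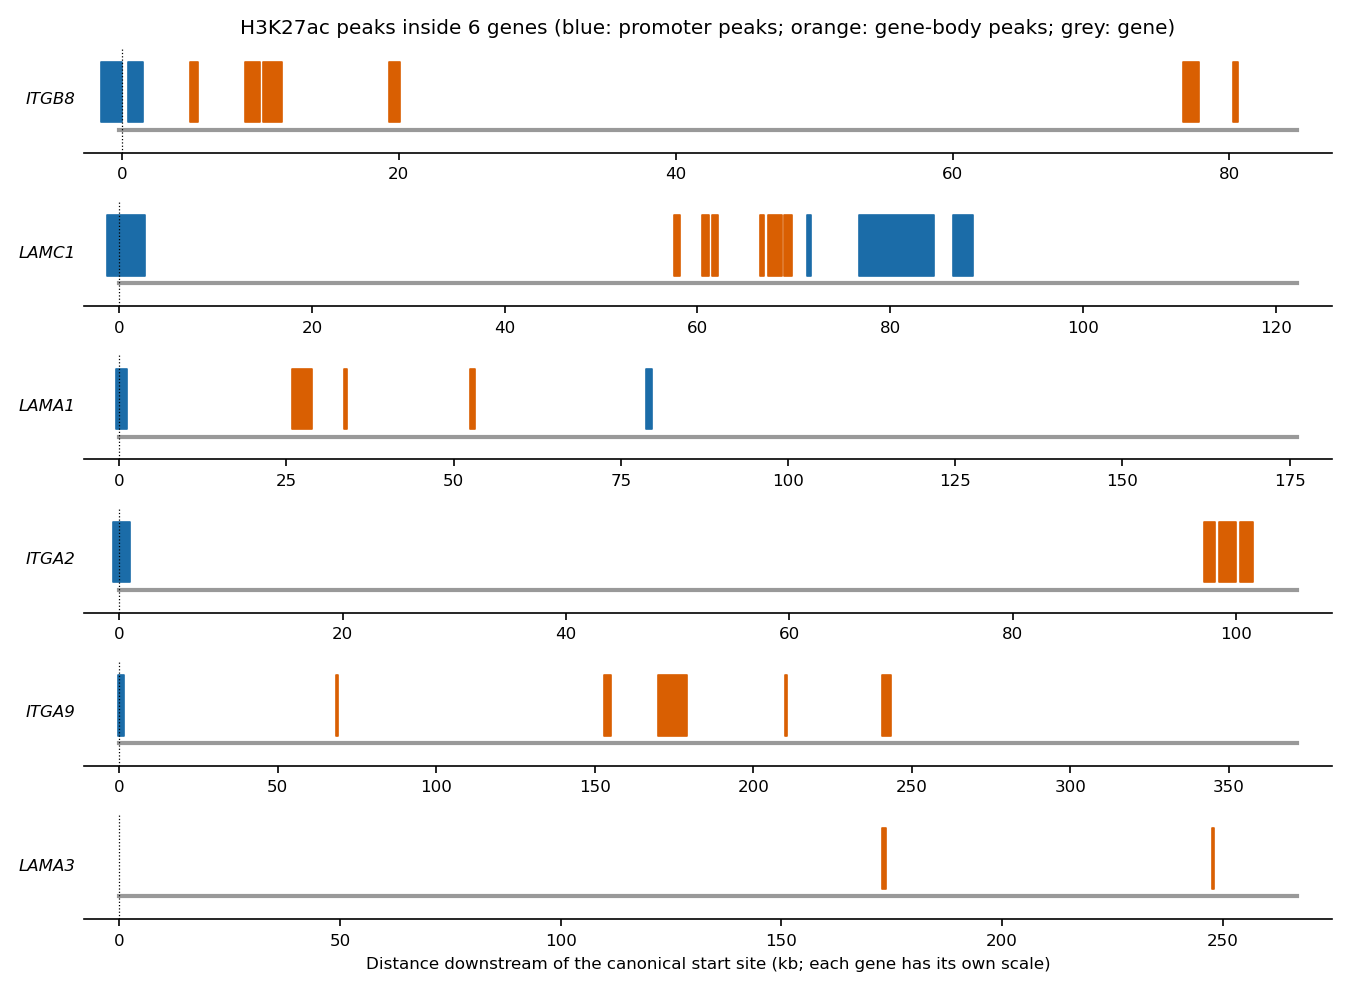
Peaks of 6 genes by distance downstream of the canonical start in kb, each gene on its own axis; blue blocks are promoter peaks, orange blocks gene-body peaks, and the grey line is the gene. LAMC1 shows a peak over the start and a cluster 57.9 to 87.6 kb downstream, ITGB8 a cluster within 19.7 kb of the start, ITGA9 spaced peaks out to 242.1 kb, and LAMA3 no peak at its start.

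Since integrins act as pairs, the 24 known heterodimers were read from the promoter peaks of their subunits. Both subunits had a promoter peak in 8 pairs, namely ITGB1 with ITGA1, ITGA2, ITGA6, ITGA7, ITGA9 or ITGAV, and ITGAV with ITGB5 or ITGB8. These comprise collagen, laminin and RGD receptors. In 10 pairs 1 subunit had a peak, and in 6 pairs neither had, among them all 4 pairs with ITGB2, the platelet pair ITGA2B and ITGB3, and ITGA4 with ITGB7. With canonical starts only, the 8 pairs were the same, and 9 had 1 subunit and 7 neither. Without peaks near a start of another coding gene, ITGA1 lost its peak, which takes its pair with ITGB1 out of the 8. ITGB1 itself had a peak, and its α partners ITGA3, ITGA4, ITGA5, ITGA8, ITGA10 and ITGA11 had none. The pairs share subunits and are not independent, and a pair of peaks does not show that the receptor was made.

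**Figure D4:**
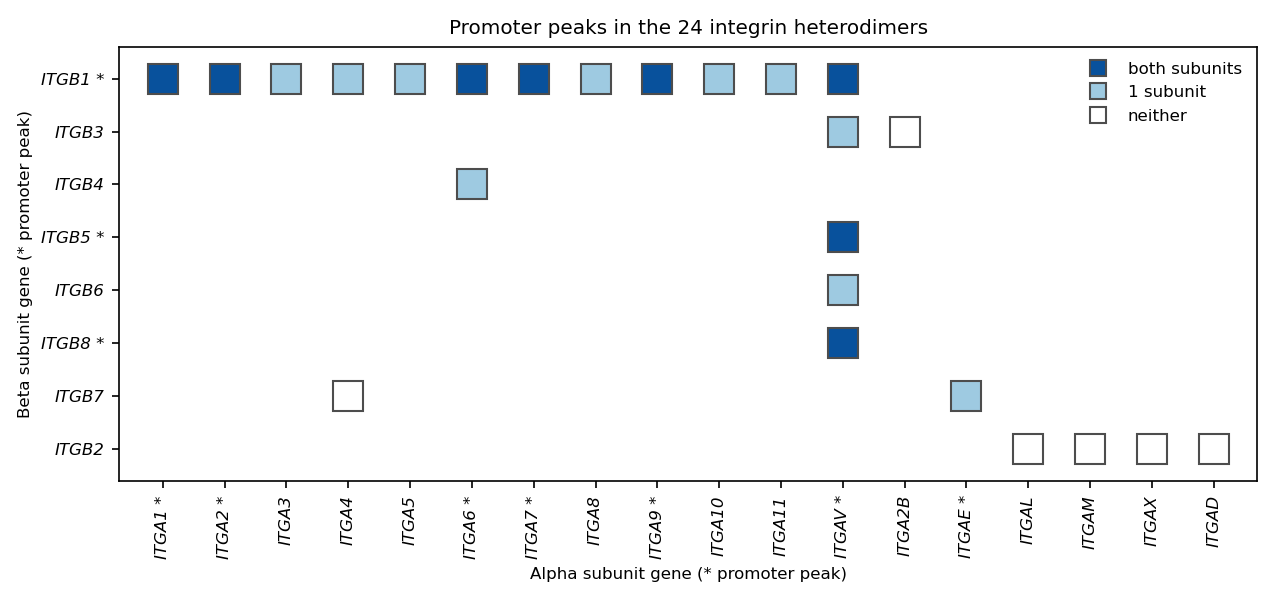
The 24 integrin heterodimers, α subunit genes on the horizontal and β subunit genes on the vertical axis; dark squares have a promoter peak at both subunits (8), light squares at 1 (10), and open squares at neither (6), and asterisks mark genes with a promoter peak. The dark squares lie in the ITGB1, ITGB5 and ITGB8 rows, and the ITGB2 row is open throughout.

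Most cytoplasmic adaptors and matrix partners of these receptors had acetylated promoters. Of 31 partner genes, 27 had a promoter peak (87.1%, 71.1 to 94.9), beside 63.4% of coding genes and 10 of the 26 integrins (38.5%, 22.4 to 57.5). They included the talins TLN1 and TLN2, which switch integrins on, FERMT2, ILK, PARVA, PXN, VCL and the focal adhesion kinase gene PTK2, and the basement membrane genes NID1, HSPG2 and AGRN. The 4 without were FERMT1, the epithelial kindlin, PARVG, the leukocyte parvin, NID2, a nidogen, and BCAM, a receptor for LAMA5. Within 3 kb of the canonical start the count was 23 of 31 (74.2%), beside 59.9% of coding genes. The peak covered the canonical start itself in 20 of 31 (64.5%, 46.9 to 78.9), beside 53.5%, and FERMT3 and PTK2 were not among these. FERMT3, the kindlin of blood cells, had a promoter peak, and the β chains it serves there, ITGB2 and ITGB3, had none.

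CpG-rich promoters of members had a peak more often than their other promoters, as was also the case over all coding genes. RefSeq gave a promoter for 25 of the 36 members, and the 25 sequences were identical to hg38. A peak lay within 3 kb of the RefSeq start for 61.5% of the 15344 coding genes with such a promoter. A promoter was called CpG-rich with at least 50% GC and an observed-to-expected CpG ratio of at least 0.6, which compares the number of CpG dinucleotides with that given by the C and G content. Of the 25 promoters, 10 (40%) were CpG-rich, beside 61.2% of all coding genes. A peak was present at 7 of these 10 (LAMC1, ITGA1, ITGA2, ITGB8, LAMB1, ITGB1 and LAMA5), beside 81.9% of CpG-rich promoters of coding genes. The other 3 were ITGA4, ITGA8 and ITGA11, with ratios of 0.77, 0.66 and 0.73. Among the 15 promoters that were not CpG-rich, 4 had a peak (26.7%; ITGA6, ITGAV, LAMB2 and LAMA4), beside 29.3% of such promoters of coding genes. Of these 4, ITGAV lay just below the limit, with 70.8% GC and a ratio that rounds to 0.60. The RefSeq start of ITGA6 lies at -0.25 kb from its canonical start, and its peak had 72.4% GC and a ratio of 0.91. With 10 and 15 promoters, the shares with a peak rest on few genes, and their differences from the coding genes were not tested.

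The 3 leukocyte integrins with a RefSeq promoter, ITGAM, ITGAE and ITGB7, had CpG ratios of 0.12, 0.27 and 0.14, with 2, 6 and 2 CpG dinucleotides. The promoter of ITGB6, with 30% GC, held no CpG. The 11 members with a peak had a median ratio of 0.68 (0.39 to 0.92), and the 14 without had 0.35 (0.00 to 0.77), with overlapping ranges. ITGB5 is counted among the latter because its RefSeq start lies at -14.05 kb from its canonical start, where the peak was. So are ITGAE and LAMA2, whose only promoter peaks lay at other starts, 77.3 and 607.5 kb downstream of the canonical start. LAMA4, with 48.4% GC and a ratio of 0.39, had a peak without a CpG-rich promoter, as the plot of CpG content shows at its left.

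**Figure D5:**
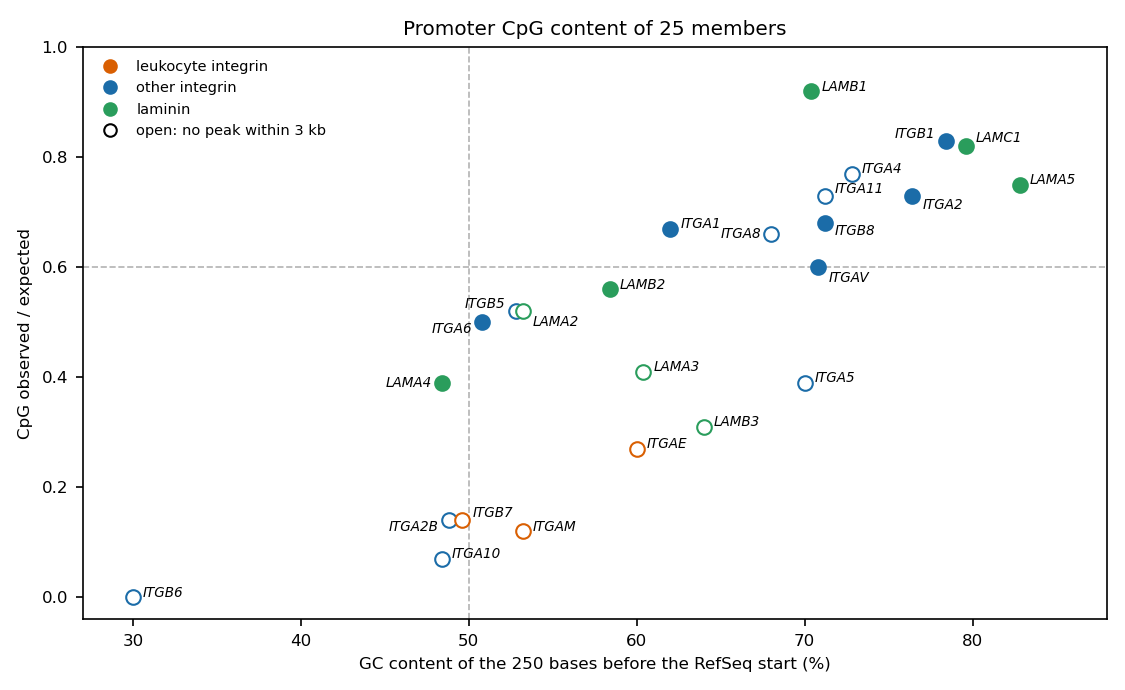
Observed-to-expected CpG ratio against GC content (%) of the 250 bases before the RefSeq start of 25 members; filled points had a peak within 3 kb of that start, open points had none, colours give the class, and dashed lines are the limits for CpG-rich (50% GC, ratio 0.6). ITGA4, ITGA8 and ITGA11 are the open points in the upper right, and the 3 leukocyte integrins lie at ratios of 0.12 to 0.27.

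Short sequence motifs were then counted on both strands in the central 400 bases of each peak. TGACGTCA is the ATF/CREB site, TGANNTCA its form with a free centre, which includes the former, TGAGTCA the AP1 site, and CACGTG the E-box used by MYC and by MITF and its relatives. CACGTG was present in 11 of the 58 windows at members (19%, 10.9 to 30.9), beside 6.85% of all 30784 windows. In promoter peaks it was in 5 of 26 windows, beside 7.81% of windows at promoters of coding genes, and in gene-body peaks in 6 of 32, beside 6.01%. The 11 windows lay at 7 genes (ITGA2, ITGB1, ITGB5, ITGB8, LAMA1, LAMA3 and LAMC1), so that they are not independent. Among them, the sites of ITGB5 in intron 4, LAMA1 in intron 3 and LAMC1 57.7 kb downstream lie in sequence of the kind found in Alu repeats. Repeats were not masked, and the shares without them were not computed. TGAGTCA was in 6 of 58 windows (10.3%, 4.83 to 20.8; 5.31% of all), TGANNTCA in 11 (19%, 10.9 to 30.9; 16.6% of all), and TGACGTCA in none (0 to 6.21%; 0.89% of all). These counts were not tested, and a match is not evidence that a factor was bound.

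Before the RefSeq starts the motifs were rare. CACGTG was found at ITGA6 among 25 promoters (7.85% of 15344 promoters of coding genes), TGAGTCA at LAMA3 (3.17%), TGANNTCA at ITGB5 (8.94%), and TGACGTCA at none (2.36%). Over the whole width of the 58 peaks there were 19 matches to CACGTG in 17 peaks, 14 to TGAGTCA in 10, and 2 to TGACGTCA.

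The following stretches show the matches in capitals with 30 bases on each side, on the plus strand of hg38. The first is the TGACGTCA of ITGB8, 10.6 kb into its first intron (chr7:20341436-20341503), and the second is the CACGTG in the same peak, whose start lies 173 bases further on (chr7:20341609-20341674). The third is the other TGACGTCA, in a LAMC1 peak 87.2 kb downstream (chr1:183110637-183110704).
ITGB8 ATF/CREB: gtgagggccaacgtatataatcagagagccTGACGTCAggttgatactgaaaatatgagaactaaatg
ITGB8 E-box: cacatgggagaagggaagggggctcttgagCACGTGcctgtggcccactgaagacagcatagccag
LAMC1 ATF/CREB: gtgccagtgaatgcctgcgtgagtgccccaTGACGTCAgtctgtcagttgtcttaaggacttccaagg
The upstream ITGB1 peak held a TGAGTCA and a CACGTG that share 2 bases (chr10:32980634-32980699), and LAMA1 and LAMA3 held CACGTG in introns 11 and 35 (chr18:7038355-7038420 and chr18:23862878-23862943). The capitals mark CACGTG.
ITGB1 E-box: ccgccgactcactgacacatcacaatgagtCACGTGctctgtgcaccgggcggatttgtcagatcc
LAMA1 E-box: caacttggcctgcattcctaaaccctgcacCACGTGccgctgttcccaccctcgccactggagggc
LAMA3 E-box: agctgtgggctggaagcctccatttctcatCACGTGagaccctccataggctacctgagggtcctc
Of the 19 matches to CACGTG in whole peaks, those of ITGB5 in intron 4 and of LAMA1 in intron 3 matched each other at 55 of 66 bases around the site, in sequence of the kind found in Alu repeats, and any other pair of sites at 48.5% of bases or less.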

How the data were processed

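SU-CCS-1 chromatin was sequenced after H3K27ac ChIP, with 3 ChIP and 3 input samples, grouped by their titles. The authors used BWA-MEM (0.7.10-r789) for alignment to hg38, removed duplicates with samtools rmdup, called broad peaks with MACS2 (2.2.6) with input as background, and removed ENCODE denylisted regions. They deposited 1 list of peak positions with neither signal nor score. Whether reads or calls of the replicates were merged is not stated, the list gives no depth, and the narrowest peak measured 400 bases on a 10-base grid. Width depends on signal height and on the joining of broad calls.

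Start sites and gene bodies came from GENCODE version 44. Overlaps were computed in Python 3.11.15 (numpy 2.4.6, scipy 1.17.1, pysam 0.24.0) and checked on simulated intervals. Motifs and CpG were counted in hg38 and in RefSeq promoters, which matched 25 of 36 members by symbol. The 11 others were ITGA3, ITGA7, ITGA9, ITGAL, ITGAX, ITGAD, ITGB2, ITGB3, ITGB4, LAMA1 and LAMC3. No test was run, since 1 merged list has no replicates. All members are named, and the members and lists were chosen with earlier results of these data known. Alternatives changed the window, the start sites, the peaks kept and the leukocyte list.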

Additional observations from a re-analysis of the deposited data

How the results depend on the processing

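No paired analysis was possible because all replicates are joined in 1 list of positions, and no replicate could be left out. Of 32 alternative values over 7 results, 28 stayed within 1.5 times the reported count or near the reported width. The number of members with a promoter peak ranged from 13 to 17. The leukocyte integrins with a promoter peak fell from 1 to 0 with the start of the canonical transcript only, and to 0 without peaks near a start of another coding gene, by leaving out the ITGAE peak at HASPIN. ITGAE also lost this peak with start sites of protein-coding transcripts only, which leaves no leukocyte integrin. Without peaks near a start of another coding gene, ITGA1 also lost its promoter peak, which it shares with PELO. With the widest 50% of peaks only, members with a gene-body peak fell from 13 to 8 and their gene-body peaks from 32 to 12, by construction, since most of these peaks are narrow; ITGA1, ITGA6, LAMA5 and LAMB1 then also lost their promoter peak. Depth and peak height are unknown, so a weakly acetylated promoter and an unacetylated one cannot be told apart.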
